A study of Homo sapiens with 4 samples.

Results

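The genes described here encode transcription factors of 8 developmental families: HOX, FOX, SOX, TBX, GATA, PAX, IRX and the sine oculis homeobox genes (such as SIX2 and SIX4). They were taken by symbol: any gene of these families with at least 1 peak in the list of N6-methyladenosine (m6A) sites in mRNA from control or heated cells was a member. The rule found 70 genes among the 8220 with a peak in either list, 67 in control and 63 in heat, which carried 116 of 14367 control peaks and 117 of 15472 heat peaks. The symbols alone chose them, but a gene with no listed peak could not become a member. By the RefSeq gene table, 149 protein-coding genes have symbols of this kind, so 79 of them had no row in the lists analysed here.

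CaSki is an established epithelial line from a cervical squamous carcinoma that carries integrated papillomavirus. Control cells were kept at 37 °C, and heated cells were held at 42 °C for 60 min before the assay; both were grown in the same medium with serum and differed, per the labels, in the heat alone. Each condition had 1 library of RNA pulled down with an m6A antibody kit and 1 input library, 4 libraries in all. No difference below has a replicate check, and no p-value was computed between conditions.

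m6A is placed on mRNA by a nuclear methyltransferase complex as transcripts are made, often near the stop codon and in long exons, and reader proteins that bind it can change the splicing, translation and decay of the RNA. The families concerned bind DNA through a homeodomain (HOX, sine oculis and IRX), a paired domain (PAX), a forkhead domain (FOX), an HMG box (SOX), a T-box (TBX) or zinc fingers (GATA), and set the identity of body segments, organs and cell types. HOX genes lie in 4 chromosomal clusters and are used in the order in which they lie. In the mouse, the posterior genes Hoxa9, Hoxa10, Hoxa11 and Hoxa13 pattern successive stretches of the female reproductive tract, and in humans PAX8 is a common marker of epithelium from the Müllerian duct.

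Each peak has 3 values from the authors' peak caller. The score is the log10 of its p-value times minus 10. The lowest listed score is 50, and many peaks share the value 3100 and cannot be ordered, with a few above it. The fold is the ratio of pulled-down signal to the estimated background, and the listed false discovery rate is in percent. These values describe a peak within its own list. The scaling between the libraries and the reads behind each peak are not given, so folds of control and heat are set side by side here and not read as a change. Regions are given in hg19, and each was assigned to a gene by the authors; exons, introns and UTRs were not assigned here.

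The line's label was checked first. Of 11 epithelial markers 9 had a peak, KRT8, CDH1, TP63 and EGFR in both lists and KRT5, KRT17, EPCAM, ITGB4 and JUP in heat only. Heat only thus held 5 of the 9, beside 13.2% of all genes with a peak. The control list had 4 of the 11, with 12 peaks against 41 in heat, so the check rests mostly on the heat list. Markers of other cells were mostly without a peak: 1 of 4 fibroblast genes (COL1A1, in both lists), 1 of 4 endothelial genes (CDH5, in control only) and 0 of 5 immune genes had a peak. A gene with no peak can still be expressed.

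Most of the transcription factor genes were marked in both conditions. Of the 70 genes, 60 had a peak in both lists (85.7%, 95% exact interval 75.3 to 92.9%), where 73.4% of all genes with a peak did. In control only there were 7 (10%, 4.12 to 19.5%), beside 13.5% of all genes, and in heat only 3 (4.29%, 0.893 to 12.0%), beside 13.2%. These intervals, like all below, cover the counting of genes or peaks and not the spread between cultures. Of the 10 genes found in 1 list, 9 had a single peak, and the same share over all genes found in 1 list was not computed. Among the 60 shared genes 37 had equally many peaks (background 54.3%), 12 had more in heat (20% of the 60, background 25.0%) and 11 had fewer (18.3%, background 20.6%). This balance turned with the threshold: 3 had more and 13 fewer above a fold of 36.5, the pooled median, and 10 had more and 12 fewer when the lists were cut to equal length. The fold limit left 65 heat and 84 control peaks of the 70 genes, and 6405 and 8488 over all genes. That limit thus kept fewer heat than control peaks, and its part in the balance was not tested. The same counts over all genes were not computed under it. The plot of peaks per gene shows that most genes sat at 1 or 2 peaks, and 33 of the 70 (47.1%, background 47.2%) never had more than 1 in a list.

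**Figure D1:**
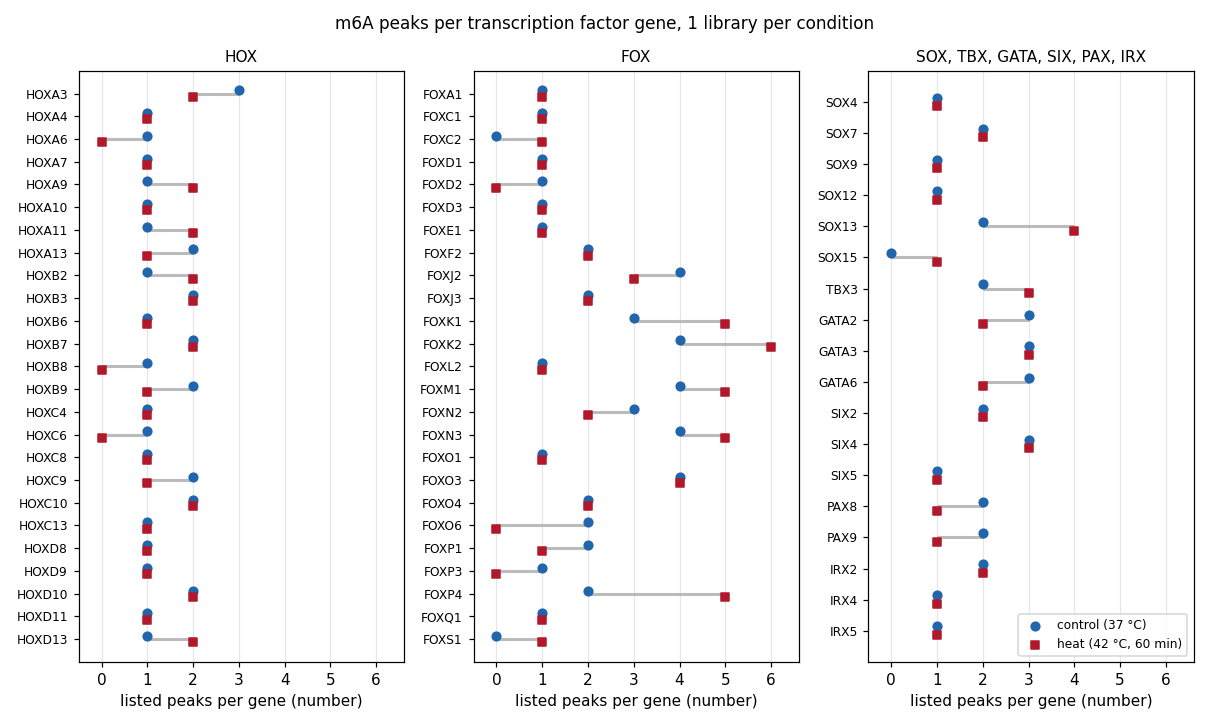
Number of listed m6A peaks (horizontal axis) for 68 of the genes (vertical axis), control as circles and heat as squares, 1 library per condition; the marks are offset vertically for visibility and a grey line joins the values of a gene. FOXK2, FOXK1, FOXP4 and SOX13 have the longest lines towards heat, with 2 or 3 more peaks, and 0 shared genes had at least 2 fewer.

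Their peaks were longer and scored higher than the typical peak of the same list. The median length was 900 bases for the 116 control peaks and 799 for the 117 heat peaks, against 537 and 417 over all peaks. The median score was 586 in control and 387 in heat, against 267 and 203. Scores at or above 3100 were found for 20 control peaks (17.2%, 10.9 to 25.4%; background 10.2%) and 11 heat peaks (9.40%, 4.79 to 16.2%; background 4.86%). The caller's false discovery rate was 100% for 40 control peaks (34.5%, background 48.5%) and 43 heat peaks (36.8%, background 53.2%), so about 1 peak in 3 among these genes carries no support by that measure. The others had limited support by it: the lowest rate was 8.45% in control (PAX8) and 20.7% in heat (FOXL2). Peaks with a score of 3100 had 18.5% in control and 34.4% in heat.

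Median folds lay above those of the whole list, 54.9 in control and 43.1 in heat beside 43.3 and 31.6. The highest control folds belonged to FOXN2 with 716, SIX4 with 483, HOXD8 with 451, FOXC1 with 404 and FOXA1, a pioneer factor that opens chromatin, with 396. In the heat list the order was another one: HOXD11 had the highest fold, 433, followed by GATA6, a factor of endoderm, with 223, HOXD10 with 205, and FOXN2 and HOXD8 with 199 each. The plot of fold by family shows HOXD highest in control by its median (104) and GATA lowest in heat (22.0).

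**Figure D2:**
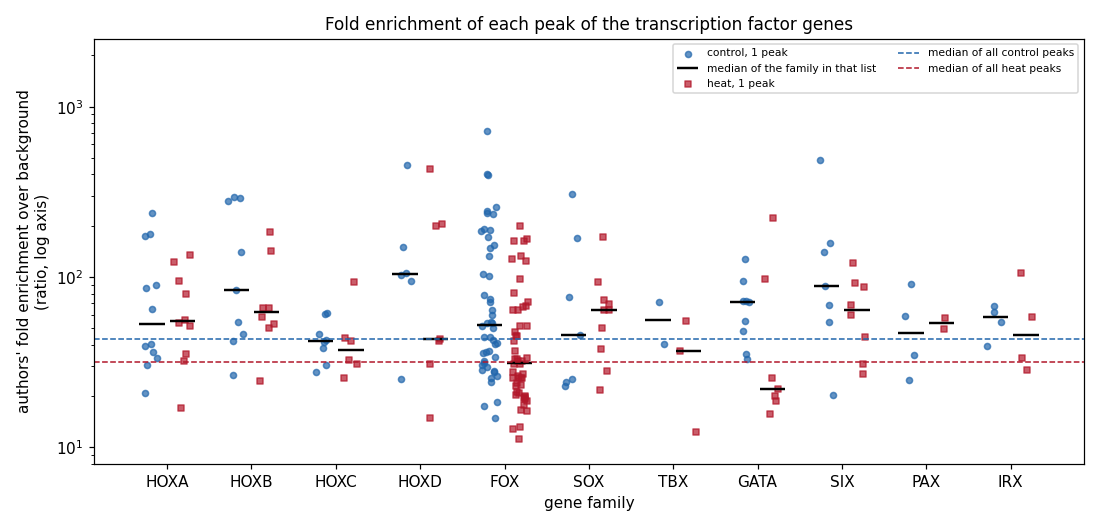
Authors' fold enrichment of each peak (ratio, log axis) by gene family, control as circles and heat as squares; black bars are the median of a family in that list and dashed lines the median of all peaks in each list. The control medians run from 42.2 in HOXC to 104 in HOXD, and the heat medians from 22.0 in GATA to 64.1 in SOX.

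Of the 39 HOX genes 26 were members, 9 of 11 in the HOXA cluster, 6 of 10 in HOXB, 6 of 9 in HOXC and 5 of 9 in HOXD. Paralogue groups are numbered from the anterior to the posterior end of the clusters. All genes of paralogue groups 6 to 10 had a peak (3 of 3 in group 6, 2 of 2 in group 7, 3 of 3 in group 8, 4 of 4 in group 9 and 3 of 3 in group 10), against 0 of 3 in group 5. Group 12 had 0 of 2 and group 13 had 3 of 4. In both lists there were 22 HOX genes and in control only 4 (15.4%, 4.36 to 34.9%; background 13.5%). In heat only there were 0 of 26, for which the exact upper limit is 13.2%, the same as the background of 13.2%, so a departure from the background was not detectable.

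HOXA6, HOXB8 and HOXC6, all in control only, had scores below the control median of 267, though the fold of HOXB8 lay above the control median of 43.3. HOXA6 had 1 peak of 30.6-fold (score 146) at chromosome 7, 27185202 to 27185536. HOXB8 had 1 of 46.3-fold (score 98.6) at chromosome 17, 46690389 to 46690871, and HOXC6 1 of 30.3-fold (score 59.2) at chromosome 12, 54422344 to 54422705. The listed false discovery rate was 100% for each, and between the flanking heat peaks 6, 2 and 5 peak numbers are not listed, so an unlisted heat peak at these sites cannot be told apart from none.

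In the HOXA cluster the genes with strong marks were those shared by both lists. HOXA10, which in mice patterns the uterus, had 1 region that was identical in control and heat, chromosome 7, 27210729 to 27211792, of 239-fold in control and 95.2-fold in heat, and its control score of 3205 was the highest of any HOX peak. HOXA4 had 1 region of 178-fold and 122-fold, and HOXA7 an identical region of 39.4-fold in control and 136-fold in heat. HOXA3, the HOX gene with the most peaks, had 3 in control (33.4-, 174- and 65.0-fold) and 2 in heat (79.3- and 17.1-fold); the one missing from heat, at 27153244 to 27153464, is assigned to another transcript of the gene. The order of its other regions differed between lists, the region at 27149734 to 27150379 being the stronger in control and the weaker in heat.

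HOXA9 and HOXA11 each had 1 control and 2 heat peaks. The further heat peak of HOXA9, of 56.2-fold (score 470) at 27204497 to 27205149, was stronger than its shared region (32.1-fold in heat, 40.4-fold in control). That of HOXA11, which in mice patterns the lower uterus and cervix, was of 35.2-fold (score 141) at 27224055 to 27224835. In both genes the further region lay on the 5′ side of the shared one, by the strand of the gene in RefSeq. HOXA13 had the opposite balance, with 2 control peaks of 90.0- and 36.5-fold and 1 heat peak of 53.7-fold; the region absent from heat, again the 5′ one, had a score of 81.5 and 40 unlisted numbers around it.

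HOXB7, studied for its role in breast and other epithelial tumours, had the highest folds of the HOXB cluster in control. Its 2 regions began and ended at the same bases in control and heat, on chromosome 17 at 46684595 to 46685457 and 46687881 to 46688383, of 297- and 290-fold in control and 142- and 53.0-fold in heat, and the first reached 3100 in both. HOXB3 kept 2 regions, of 42.1- and 54.5-fold in control and 185- and 58.1-fold in heat. HOXB6 had 1 control region of 279-fold, 1475 bases long, and 1 heat region of 50.2-fold, 2915 bases long and shifted, so that they overlapped in part and were assigned to different transcripts. HOXB9 had 2 control peaks (26.6- and 140-fold) and 1 heat peak (66.1-fold). HOXB2 had a further heat peak that barely passed, with a score of 50.7 and a fold of 24.6, and it was the one further heat region for which the control list leaves no number for an unlisted peak.

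Of the 4 clusters, HOXC had the lowest median fold in each list, 42.2 in control and 37.4 in heat. Its 8 control peaks had folds of 27.6 to 61.4, 6 of them with a listed false discovery rate of 100%, and its 6 heat peaks folds of 25.5 to 93.2, 4 of them at 100%. In HOXC13 and HOXC4 the lists agree on the gene and not on the place, the case for 2 of the 60 shared genes (background 4.79%). HOXC13, a regulator of hair and nail keratins, had a control peak of 27.6-fold at chromosome 12, 54332576 to 54333426, and a heat peak of 42.2-fold at 54338784 to 54340328, with 5357 bases between them. HOXC4 had a control peak of 41.5-fold at 54448634 to 54449408 and a heat peak of 25.5-fold 488 bases away. HOXC10 had 2 regions in each list, HOXC8 had 1, and HOXC9 had 2 in control (43.0- and 38.4-fold) and 1 in heat (93.2-fold). HOXC4 and HOXC6 have transcripts that share sequence upstream, so the gene given to a region here is uncertain.

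All 5 HOXD members, HOXD8 to HOXD11 and HOXD13, were in both lists (background 73.4%), and 6 of 6 control peaks overlapped a heat peak (background 71.7%). Over all HOX genes 25 of 35 control peaks did (71.4%), near the background. HOXD11, a gene of the forearm and the urogenital tract in mice, had the same region in both lists, chromosome 2, 176972084 to 176972864, of 151-fold in control and 433-fold in heat. HOXD8, 451- and 199-fold, and HOXD9, 102- and 43.1-fold, also had the same boundaries in both. HOXD10 had 2 regions in each list, the stronger of 94.7-fold in control and 205-fold in heat. HOXD13, in which mutations cause synpolydactyly, had 1 region of 105- and 42.2-fold and a further heat peak of 30.8-fold (score 111). The map of the clusters shows how the regions of the lists stack over each other, and no region of a member overlapped one assigned to another gene.

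**Figure D3:**
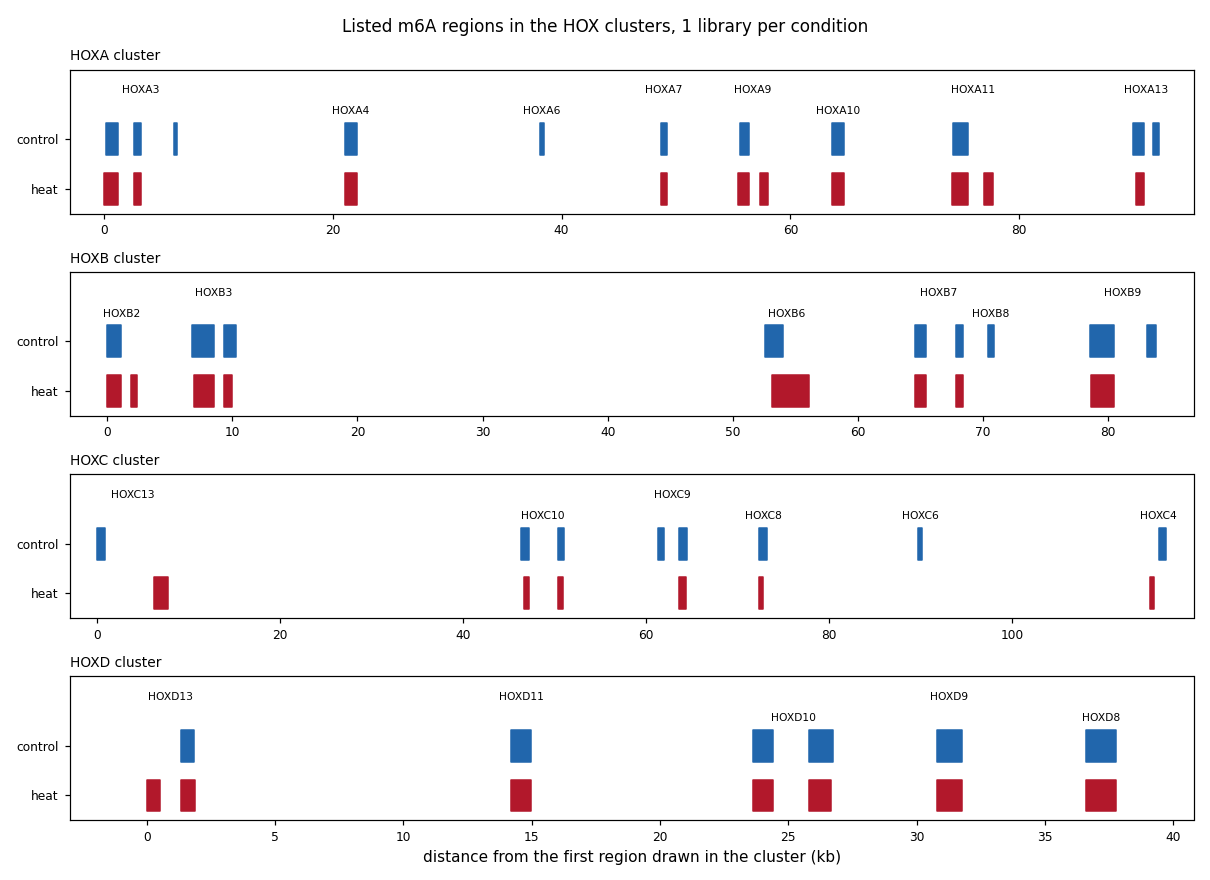
Listed m6A regions of HOX genes named in the text, in the 4 clusters, control above heat, against the distance from the first region drawn in the cluster (kb); boxes are drawn to scale. HOXA6, HOXB8 and HOXC6 have boxes in control only, and the boxes of HOXC13 and of HOXC4 stand apart.

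The forkhead family was the largest, with 25 of 51 genes, 48 control peaks and 52 heat peaks. In both lists there were 20 (80%, 59.3 to 93.2%; background 73.4%). FOXD2, FOXO6 and FOXP3 were in control only (12%, 2.55 to 31.2%; background 13.5%), and FOXC2 and FOXS1 in heat only (8%, 0.984 to 26.0%; background 13.2%), so each share was near that of all genes. Forkhead peaks that overlapped between the lists numbered 39, which is 81.2% of the control peaks (background 71.7%) and 75% of those in heat (background 66.7%). Many forkhead genes had 1 long region that overlapped between the lists. FOXE1, a factor of the thyroid, had an identical region of 3461 bases at chromosome 9, 100615537 to 100618997, with 256-fold in control and 71.4-fold in heat. FOXC1 (404- and 163-fold), FOXD1 (44.3- and 66.7-fold), FOXL2 (132- and 64.2-fold), FOXQ1 (50.4- and 124-fold) and FOXA1 (396- and 45.3-fold) each had 1 overlapping region per list. FOXQ1, FOXF2 and FOXC1 are neighbours within 300.4 kb of chromosome 6, and each was marked in both conditions.

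The forkhead genes found in 1 list had scores below the median of their list (267 in control, 203 in heat), though the fold of FOXS1 lay above the heat median of 31.6. FOXO6 had 2 control peaks, of 33.8- and 30.3-fold with scores of 77.0 and 112. FOXD2 had 1 of 31.2-fold over 2170 bases at chromosome 1, 47903689 to 47905858, with a score of 234, the highest of the 7 control-only genes. FOXP3, the defining factor of regulatory T cells, had 1 control peak of 28.5-fold and 166 bases on chromosome X, in a line where 0 of 5 immune markers had a peak. In heat only, FOXC2, a factor of lymphatic vessels and mesenchyme, had 1 peak of 25.5-fold (score 80.7) and FOXS1 1 of 42.2-fold and 94 bases (score 167). All 5 genes had a listed false discovery rate of 100% in each of these peaks.

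FOXK2, FOXK1 and FOXP4 had more listed regions in heat, and the map of these genes shows them. With SOX13 they are the 4 shared genes with at least 2 more heat peaks (6.67% of 60, background 9.45%), whereas 0 of 60 had at least 2 fewer (background 4.68%). FOXK2, which with FOXK1 represses autophagy genes and steers glucose use, had 4 control and 6 heat peaks on chromosome 17. Its last region, 80559179 to 80562483, was identical in both lists with 234- and 134-fold, and so was that at 80544939 to 80545438, with 148- and 80.1-fold. The 3 heat-only regions of FOXK2 were of 195, 194 and 410 bases with 27.7-, 33.0- and 25.5-fold, and 1 control-only region was of 176 bases with 28.0-fold.

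FOXK1 had 3 control and 5 heat peaks on chromosome 7, among them the longest region of any gene described here, 7994 bases in control and 9260 in heat from the same start at 4801815, of 153- and 97.6-fold. Its heat-only regions, of 186 and 194 bases, had 19.7- and 20.7-fold. FOXP4, a repressor active in lung and gut development, had 2 control and 5 heat peaks on chromosome 6. The outer regions were shared, of 64.1- and 166-fold and of 51.7- and 22.9-fold, and 3 short regions between them, of 208, 122 and 170 bases, were in heat only with 16.6-, 21.2- and 25.6-fold. All of the further forkhead regions in FOXP4 had a listed false discovery rate of 100%. When peaks with a fold of 36.5 or less were left out, FOXK1 and FOXP4 each had 1 peak fewer in heat than in control, and FOXK2 had equally many. That limit takes out more heat than control peaks over all genes, so these differences cannot be read as a change.

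**Figure D4:**
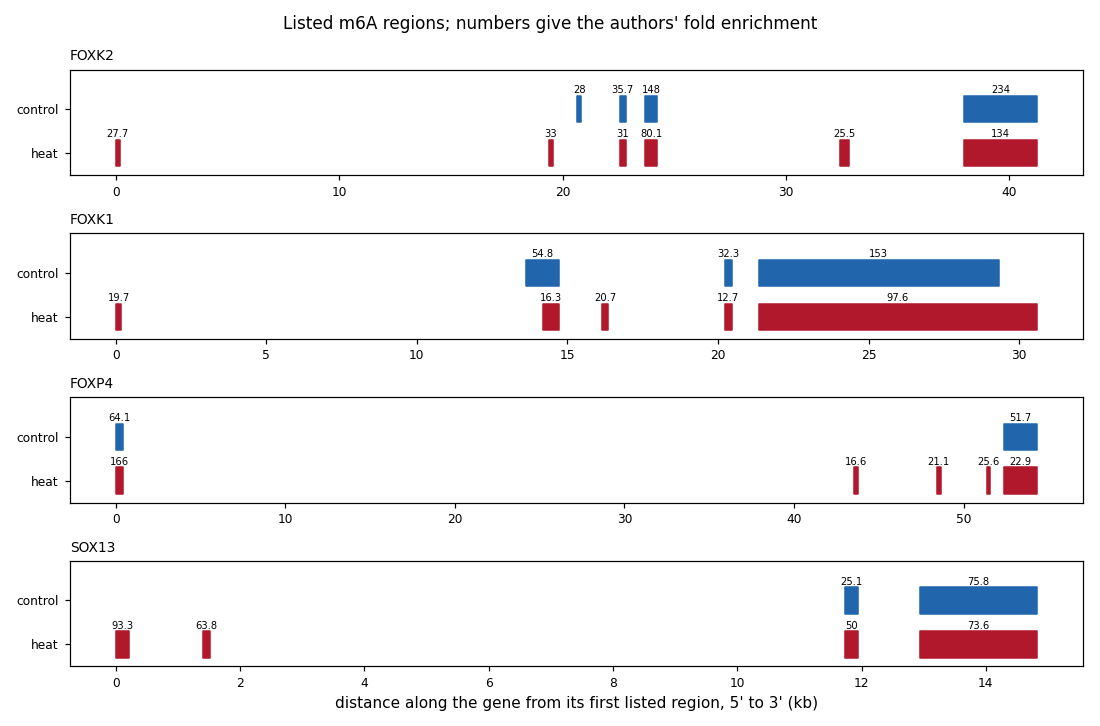
Listed m6A regions of FOXK2, FOXK1, FOXP4 and SOX13, control above heat, against the distance along the gene from its first listed region (kb, 5′ to 3′, introns included); the number over a box is its fold, and very short regions are drawn slightly wide to be seen. The long regions at the right end are in both lists, and the heat-only boxes are short and lie to their left.

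Other forkhead genes of growth control were marked alike by number. FOXM1, a driver of mitotic genes, had 4 control peaks and 5 heat peaks, all 4 control regions with the same boundaries in heat; its longest region, chromosome 12, 2966847 to 2968829, reached 3100 in both with 36.3- and 51.6-fold. The FOXO factors, which insulin signalling through AKT keeps out of the nucleus, were mostly shared. FOXO3 had 4 regions in each list, of 185-, 71.6-, 172- and 36.7-fold in control and 32.3-, 17.8-, 26.9- and 47.5-fold in heat, in 5′ to 3′ order. FOXO1 had 1 identical region (59.6- and 31.9-fold) and FOXO4 2 (246- and 18.5-fold in control, 163- and 20.0-fold in heat). FOXN3, a checkpoint repressor, had 4 and 5 peaks, and its strongest fold stood at the region 89878278 to 89878836 of chromosome 14 in control (188) and at 89627418 to 89629313 in heat (127).

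FOXJ2 had the strongest region of any member that the heat list does not show. It lay at chromosome 12, 8185359 to 8186429, with 192-fold and a score of 2116 in control, and 10 numbers between the flanking heat peaks are not listed. FOXJ2 had 3 other control peaks, 2 of them identical in heat, and a heat-only peak of 141 bases. FOXJ3 had 2 regions and FOXF2 2 in each list. FOXN2 had 3 control peaks, of 78.3-, 716- and 238-fold, and 2 heat peaks, of 199- and 64.3-fold, and lost the weakest by score. FOXP1 had 2 control peaks (104- and 74.8-fold) and 1 in heat (67.8-fold), and FOXD3 1 in each list with scores of 51.1 and 79.4, close to the lowest listed.

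SOX genes were few, with 6 of 19 genes, 7 control and 10 heat peaks. Their median score was 2086 in control and 714 in heat, against 267 and 203 over all peaks, while the median fold was 45.5 in control, close to the 43.3 of all peaks, and 64.1 in heat. SOX4 and SOX12, sister genes of progenitor cells, had 1 long region each that reached 3100 in both lists, of 4878 and 4733 bases with 307- and 172-fold for SOX4 and of 3400 and 3634 bases with 169- and 64.5-fold for SOX12. SOX9, the regulator of cartilage and testis formation, had 1 region of 24.2- and 21.6-fold, and SOX7 2 regions in each list. SOX13 had 2 control peaks (25.1- and 75.8-fold) and 4 heat peaks; those it shared had scores of 387 and 1586 in heat, and the further ones, of 220 and 112 bases at chromosome 1, 204082043 to 204082262 and 204083449 to 204083560, were of 93.3- and 63.8-fold. They passed the fold limit of 36.5, above which the difference in SOX13 was 3 peaks.

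SOX15, a gene of squamous epithelium and placenta, had the highest score of the members found in 1 list, though not the highest fold. It had 1 heat peak of 38.0-fold over 1093 bases, with a score of 936 and a listed false discovery rate of 21.1%, at chromosome 17, 7492317 to 7493409. Between the flanking control peaks 6 numbers are not listed. It stayed in heat only under each of the 5 other thresholds tried, which held for no other member found in 1 list.

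The remaining families had 13 members, all of them in both lists (background 73.4%). TBX3, a repressor of senescence and the one member of 13 T-box genes, had 2 control peaks (40.4- and 71.2-fold) and 3 heat peaks (55.2-, 37.0- and 12.3-fold). GATA3, a factor of breast and skin epithelium, had 3 peaks in each list, but only 2 of its regions were in both. Its control peak at chromosome 10, 8100268 to 8100804 (55.0-fold, score 341), lay between consecutively numbered heat peaks, which leaves no room for an unlisted one; it was the one control-only region of a member for which this held. GATA3's heat peaks had scores of 61.9, 54.2 and 88.5. GATA2 and GATA6 each had 3 control and 2 heat peaks. The control region with the highest fold, 72.1 in GATA2 and 128 in GATA6, had no overlapping heat peak in either gene. The strongest heat regions were others, of 97.7-fold in GATA2 (71.8-fold in control) and of 223-fold in GATA6 (94.3-fold in control).

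The sine oculis homeobox genes, which act with EYA proteins in organ growth, were in both lists (background 73.4%). SIX4 had 3 regions in each list, of 88.7-, 483- and 158-fold in control and 86.9-, 31.0- and 92.6-fold in heat; the middle one, chromosome 14, 61186478 to 61187163, had the highest fold of the gene in control and the lowest in heat. SIX2 had 2 in each list (54.3- and 20.2-fold, and 121- and 44.7-fold) and SIX5 1 (141- and 59.8-fold). PAX8 had a region that began at the same 5′ edge in both lists and ran over 2577 bases in control (90.4-fold) and 1706 in heat (57.6-fold), and a control-only region of 100 bases. PAX9 had 2 control peaks and 1 heat peak (59.2- and 34.7-fold, and 49.3-fold). IRX2 had 2 regions in each list, and IRX4 and IRX5 1, IRX4 reaching 3100 in both with 68.0- and 58.4-fold.

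Single regions, as distinct from genes, were mostly shared as well. Shared regions made up 92 of the 116 control peaks (79.3%, 70.8 to 86.3%; background 71.7%) and 92 of the 117 heat peaks (78.6%, 70.1 to 85.7%; background 66.7%). Merged, the genes had 141 sites: 92 were shared, 24 were found without heat alone (20.7% of control peaks, background 28.3%) and 25 after heat alone (21.4% of heat peaks, background 33.3%). The single-list peaks were the weaker ones, as they were over all genes. Their median score was 183 in control and 156 in heat, against 802 and 642 for the overlapping peaks, and their median length 555 and 236 bases, against 972.5 and 890.5. None of the 49 reached a score of 3100.

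The 92 overlapping peaks formed 92 pairs, and 49 of these (53.3%, 42.6 to 63.7%; background 66.5%) matched at both ends. They were 42.2% of control peaks (background 47.2%) and 41.9% of heat peaks (background 43.8%). In 39 pairs (42.4%, 32.1 to 53.1%; background 30.0%) 1 edge differed, the heat region being the shorter in 26 (66.7%, background 58.8%), and in 4 (background 3.51%) both did. RefSeq's promoter table gives the strand for 46 of the 70 genes and 66 of the pairs. By strand, the 3′ edge alone differed in 25 pairs (37.9%, background 25.6%) the 5′ edge alone in 2 (3.03%, background 4.13%) and both in 2 (3.03%, background 3.48%), while 37 were identical (56.1%, background 66.8%). Where 1 edge differed it was mostly the 3′ one, here and over all genes. The heat region was the shorter in 15 of the 25 (60%, background 57.9%), as in PAX8 and in FOXD3, where 1647 bases in control stood beside 827 in heat, and the longer in 10, by 1266 bases in FOXK1. The median size of these shifts was 112 bases.

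The place of a site along the RNA went with whether both lists held it. In the 27 genes with a known strand and at least 2 sites, the last, or 3′-most, site was in both lists for 23 (85.2%, 66.3 to 95.8%; background 64.6%), in control only for 4 (background 17.7%) and in heat only for 0 (exact upper limit 12.8%, background 17.7%). The first site was in both for 11 (40.7%, 22.4 to 61.2%; background 43.2%), in control only for 8 (background 25.2%) and in heat only for 8 (background 31.7%). Of 27 inner sites 16 were in both (background 51.3%), 2 in control only (7.41%, background 17.4%) and 9 in heat only (33.3%, background 31.3%), 7 of these 9 in FOXK1, FOXK2, FOXP4 and SOX13 together. The plot of sites by place shows the same order, shared sites most common at the 3′ end, for the factors and for all genes.

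**Figure D5:**
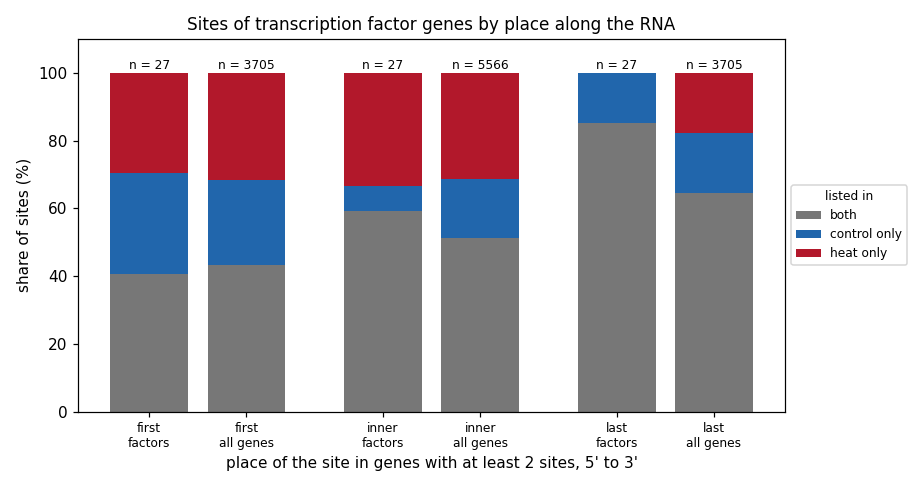
Share of sites (%) listed in both conditions, without heat alone or after heat alone, by the place of the site in genes with at least 2 sites and a known strand, for the transcription factor genes and for all genes; n gives the sites in each bar. The share in both lists rises from 40.7% at the first site to 85.2% at the last in the factors, and from 43.2% to 64.6% in all genes.

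Genes whose products work with these factors were looked at next. Of 11 TALE-class genes, whose products bind DNA with HOX proteins, 6 had a peak. PBX3, MEIS2, TGIF1 and TGIF2 were among those in both lists, and MEIS1 was in heat only with 1 peak of 34.3-fold (score 68.0). TGIF1 (104- and 54.0-fold) and TGIF2 (137- and 84.4-fold) had the highest scores. Of 29 Polycomb genes, which keep HOX clusters silent, 25 had a peak, 16 of them in both lists (background 73.4%). SUZ12, RBBP4 and MTF2 were in control only (background 13.5%), with 77.4-, 29.2- and 96.5-fold. In heat only there were 6 of the 25 (background 13.2%): EZH1, EZH2, RBBP7, PHF19, PCGF2 and PCGF6, with 34.3-, 31.7-, 27.5-, 13.7-, 25.2- and 29.9-fold. JARID2, a Polycomb cofactor, had 7 control and 12 heat peaks, the strongest of 270- and 489-fold.

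Of 13 genes of the Trithorax group and H3K27 demethylases, which counter Polycomb, 13 had a peak, 12 in both lists, such as HCFC1 and KDM6B, and DPY30 in heat only (37.2-fold). Of 17 regulators of FOXO factors 12 had a peak, 11 in both lists, among them IRS1 and IRS2, with AKT2 in heat only (2 peaks, the stronger of 31.4-fold and a score of 927). Of 14 partners and corepressors of sine oculis, GATA and FOX factors 8 had a peak, 7 in both, such as ZFPM1 and TLE1, and EYA3 in heat only (35.2-fold, score 68.3). Of the 64 genes with a peak in these 5 lists, 3 were in control only (4.69%, background 13.5%) and 10 in heat only (15.6%, background 13.2%), the latter share near the background. Of these 10 heat-only genes 6 were Polycomb genes, which made up 25 of the 64 genes with a peak. RNA levels from the input libraries were not analysed here, and a difference in peaks cannot be told apart from a difference in the amount of RNA.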

How the data were processed

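The analysis began from the authors' 2 peak lists, 1 per condition. Reads were processed with cutadapt 1.9.3 and STAR, and the build is hg19, per the submitters' processing notes; peak names begin with MACS, and neither its release nor its settings is given in the sources used here. Per the file headers, the authors deposited for each peak a score (minus 10 times log10 of p, at least 50, that is 1e-05), a fold enrichment (ratio), a false discovery rate in percent and a length in bases. Listed peaks make up 24.6% of the peak numbers in control and 23.9% in heat; others were not analysed here. Read totals are not in these values, so depth is unknown.

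Here 1 was added to each start. Genes were matched by symbol; all 70 symbols were found in RefSeq (GRCh38.p14), from which the strand of 46 was taken and no coordinate. Regions overlapping by at least 1 base were shared (bedtools 2.31.1); the counting was tested on simulated data. Shares have 95% exact binomial intervals (scipy 1.17.1). With 1 library per group no test was run. Families, lists and the rule for genes given in full (those in 1 list, those differing by at least 2 peaks, and the most marked of each family) were chosen with earlier results of these data known; the order along the RNA and the edges were looked at after the peaks were seen. The alternatives were limits on fold, score, false discovery rate and list length, stricter overlap, matching by position, and members with a well-scored peak. A few genes are counted and not reported here by name.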

Additional observations from a re-analysis of the deposited data

How the results depend on the processing

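Over the 5 thresholds tried, 48 to 60 members were in both lists (83.1 to 87.7%), 5 to 8 in control alone (8.77 to 13.6%) and 2 or 3 in heat alone (3.39 to 5.26%). Over all genes these shares ran from 55.3 to 72.7%, from 15.5 to 31.8% and from 11.7 to 14.7%. The single-list members were largely other genes. With a score above 228, 1 of the 8 control-only members, FOXD2, was among the 7 found at the authors' threshold, and with a listed false discovery rate under 100% or with 7183 peaks from each list 0 were; with a fold above 36.5 it was 1 of 7, HOXB8. Members such as GATA3 and HOXC4 took their place under these 4 limits, and HOXC13 became heat only. With 14367 peaks from each list the classes held the same genes, and matching by position left all 3 counts as they were. Among members with a peak at or above the median score of its list, 56 were shared, 0 were control only and 1 was heat only. Shared genes could pass by a peak in either list, so this limit favours them by construction. The same shares over all genes were not computed. The share of control peaks that overlapped fell to 60.7% above a fold of 36.5 (47.6% of all control peaks), and with the same start and end required the shares were 42.2% in control and 41.9% in heat. Shared members with more peaks in heat numbered 3 above that fold, which left 65 heat and 84 control peaks of members, against 13 with fewer. They were 10 against 12 with 14367 peaks from each list, 5 against 7 by score, 5 against 6 with 7183 peaks and 6 against 7 by false discovery rate. The shares of all genes with more or fewer peaks were not computed under these limits. FOXK1 turned to a difference of -1 under the fold, score, 7183-peak and false discovery rate limits and FOXP4 to -1 by fold. By contrast, the difference in SOX13 was 3 under each of these 4 limits. Each limit leaves fewer peaks in all, and the 7183-peak limit leaves equally many in each list. No replicate could be left out, since each group had 1 library. No paired analysis was possible because the result comes from no test.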
